A study of Mus musculus with 6 samples.

Results

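Synaptic vesicle and postsynaptic scaffold genes were examined in the telencephalon (cortex, striatum and the structures around them) of WT and TSC1 mice at postnatal day 0. The genes were chosen by name, as 39 members of the release machinery of the nerve terminal and of the receptor scaffold opposite to it, and 38 of them were found among the 22651 genes of the tables. Of the 38, 24 were presynaptic and 14 postsynaptic, and Nrxn2 was not analysed here. WT mice (n = 3) had the genotype TSC1 flox/flox;Emx1 +/+, and TSC1 mice (n = 3) had the genotype TSC1 flox/flox;Emx1-cre/+, so that both groups carried the floxed gene and the TSC1 mice also carried Cre in the Emx1 locus. The WT mice were littermates without Cre. Emx1 drives Cre in the embryonic dorsal cortex, and cells of the ventral telencephalon in the same tissue keep Tsc1. The third replicate of each group was male and the others female by their Xist and Ddx3y levels. The tissue held 3 libraries per group, 1 per mouse, with total expected counts of 14119365 to 17772865. On the first principal component of all genes tested (47.7% of the variance), TSC1 replicate 3 lay at -3.95, nearer to the WT mice, at -26.3 to -7.43, than to the other TSC1 mice, at 26.5 and 30.3.

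A nerve terminal holds vesicles filled with transmitter. Synapsins tether these vesicles, active zone scaffolds dock and prime them, and the SNARE proteins fuse them with the membrane when a synaptotagmin binds calcium. On the other side of the cleft, scaffold proteins of the PSD-95, SAPAP, Shank and Homer families hold glutamate receptors in place, gephyrin does so for glycine and GABA receptors, and neurexins and neuroligins bind each other across the cleft. Most cortical synapses form after birth, so that the levels measured at this age are those of neurons that have few mature contacts.

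None of the 38 synaptic genes passed edgeR's test of TSC1 against WT, but most were slightly higher in the TSC1 mice. The genes at the top of the range were Pclo, Syn1, Stx1a, Shank2, Shank1, Sv2b and Bsn, with edgeR log2 fold changes from 0.28 to 0.41, and those at the bottom were Nrxn3 and Vamp1, with -0.39 and -0.38. Presynaptic and postsynaptic genes lay close together, with a median of 0.17 over the 24 presynaptic genes (12.7% higher) and of 0.13 over the 14 postsynaptic genes (9.48% higher). In bulk tissue, fewer cells of a type and less RNA per cell cannot be told apart, and the same holds for more.

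All 38 genes passed edgeR's filter on low counts. Adjusted p-values are from edgeR's quasi-likelihood test with Benjamini-Hochberg adjustment over 13969 genes, and a gene was called at an adjusted p below 0.05, which 1.52% of all genes tested reached. The smallest adjusted p among the synaptic genes was 0.061, for Sv2b. DESeq2 called 5 of them, Syn1, Syt1, Stx1a, Sv2b and Pclo, all higher in TSC1, where it called 2.58% of all genes higher. limma on log2(TPM + 1) called 1, Stx1a, against 0.995% of all genes called higher, and on log2(TPM + 0.1) the same gene, against 0.938%. At an unadjusted edgeR p below 0.05, 14 of the 38 (36.8%) were higher in TSC1 and 1, Nrxn3, was lower, against 9.04% of all genes higher and 8.93% lower. The 14 became 6 without TSC1 replicate 2 and 8 without WT replicate 2 or without WT replicate 3. The share of all genes at this unadjusted p was not taken in these fits, so 6 and 8 have no background beside them. At an adjusted p below 0.05, the calls over all genes, 212 with all mice, were 37, 29 and 35 in the same order of fits. In the sign of the fold change, 30 of 38 (78.9%) were above 0, against 49.3% of all genes. The median log2 fold change was 0.16 over the 38 genes, or 11.4% higher, and -0.003 over all genes tested. In 12 genes every TSC1 mouse had a higher TPM (RSEM's share of a gene among all transcripts, corrected for transcript length) than every WT mouse, a pattern found in 12.3% of all genes, and in 0 genes every TSC1 mouse was lower, against 10.3% of all genes.

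**Figure D1:**
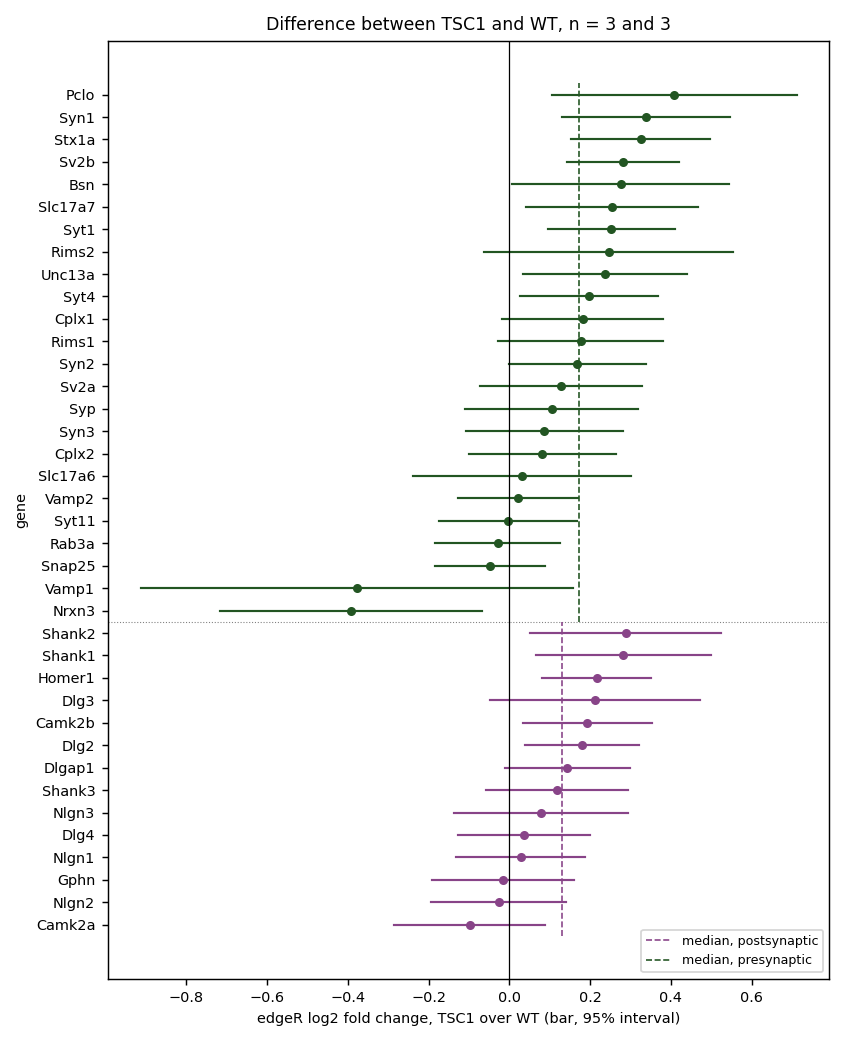
edgeR log2 fold change (x axis, TSC1 over WT, n = 3 and 3) of each of the 38 synaptic genes (y axis), with its 95% interval as a bar, presynaptic genes in green above and postsynaptic genes in purple below. Dashed lines are the medians of the 2 sides, 0.17 and 0.13, and most points lie to the right of 0 with Nrxn3 and Vamp1 to the left.

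Promoter windows are shown for the genes with a TPM apart between the groups, an unadjusted edgeR p below 0.05 and a single start in the RefSeq windows, a choice made after their values were seen. The windows run from 250 bases before to 50 bases after the start, 5′ to 3′ on the strand of the gene, and come from RefSeq on GRCm38.p6. Capitals mark GGGCGG (a GC box, bound by Sp factors), TGACGTCA (a CRE, bound by CREB) and TTCAGCACC (the left part of the RE1 element of the neuronal repressor REST), on either strand. The positions are chrX:20920869-20921168 (minus strand) for Syn1, chr5:135023232-135023531 (plus strand) for Stx1a, chr8:71671708-71672007 (minus strand) for Unc13a, chr7:45163671-45163970 (plus strand) for Slc17a7 and chr11:6065699-6065998 (minus strand) for Camk2b.
Syn1: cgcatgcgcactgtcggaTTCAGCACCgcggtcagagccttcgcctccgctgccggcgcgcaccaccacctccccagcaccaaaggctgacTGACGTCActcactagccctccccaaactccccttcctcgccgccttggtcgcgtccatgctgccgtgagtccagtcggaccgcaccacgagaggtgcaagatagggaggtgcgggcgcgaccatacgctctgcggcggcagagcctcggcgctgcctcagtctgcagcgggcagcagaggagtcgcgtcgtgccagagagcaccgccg
Stx1a: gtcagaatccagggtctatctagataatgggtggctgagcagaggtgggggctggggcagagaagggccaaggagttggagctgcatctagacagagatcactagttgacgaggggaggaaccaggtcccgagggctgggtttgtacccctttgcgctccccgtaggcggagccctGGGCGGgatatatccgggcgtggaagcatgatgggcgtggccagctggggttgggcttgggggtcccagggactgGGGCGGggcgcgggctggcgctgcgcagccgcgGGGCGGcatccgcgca
Unc13a: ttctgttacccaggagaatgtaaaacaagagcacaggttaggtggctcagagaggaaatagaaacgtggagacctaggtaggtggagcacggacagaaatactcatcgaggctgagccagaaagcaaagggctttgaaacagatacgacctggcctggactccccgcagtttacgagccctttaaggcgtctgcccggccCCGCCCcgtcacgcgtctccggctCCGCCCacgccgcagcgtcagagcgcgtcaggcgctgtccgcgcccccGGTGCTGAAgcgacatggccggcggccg
Slc17a7: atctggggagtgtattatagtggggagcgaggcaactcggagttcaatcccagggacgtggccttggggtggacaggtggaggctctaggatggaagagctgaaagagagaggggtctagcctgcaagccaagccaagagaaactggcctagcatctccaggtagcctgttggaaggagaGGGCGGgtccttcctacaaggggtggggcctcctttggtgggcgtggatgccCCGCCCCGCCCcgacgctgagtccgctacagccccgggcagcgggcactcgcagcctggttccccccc
Camk2b: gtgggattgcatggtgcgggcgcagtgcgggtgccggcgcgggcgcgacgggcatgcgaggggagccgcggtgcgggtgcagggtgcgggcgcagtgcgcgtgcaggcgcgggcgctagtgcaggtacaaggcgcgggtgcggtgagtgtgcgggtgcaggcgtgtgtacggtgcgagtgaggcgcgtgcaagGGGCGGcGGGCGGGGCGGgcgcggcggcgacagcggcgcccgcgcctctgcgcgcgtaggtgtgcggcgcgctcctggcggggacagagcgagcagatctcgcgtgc
Of 12 motifs searched in the 46 windows of 29 synaptic genes, GGGCGG was in 47.8% of windows, against 35.7% of all 32851 windows. TTCAGCACC was in 3 of 46, those of Syn1, Unc13a and Nlgn1 (6.52%), against 0.371% of all windows, and TGACGTCA was in 1, that of Syn1 (2.17%), against 1.79%. Of the other 9 motifs, those found in a synaptic window were GGACAGC (right part of RE1, 2.17% of synaptic and 6.56% of all windows), CAGCACC (which lies within TTCAGCACC, 8.7% and 7.14%), CACGTG (an E-box, 4.35% and 7.15%), GCGGGGGCG (EGR factors, 6.52% and 2.91%), TATAAA (bound by TBP, 6.52% and 13.6%) and the NRF1 motif (2.17% and 0.971%). The remaining 3 were in no synaptic window, namely TGATGCAAT (ATF4 and its partners, 0.192% of all windows), the longer E-box TCACGTGAC (0.782%) and the motif of THAP11 and ZNF143 (0.277%). A match of letters is a description of the window and not a bound site. The genes shown differ in the elements they hold, and Stx1a, Slc17a7 and Camk2b share GC boxes alone among the 3 motifs marked.

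The levels of the 38 genes spanned a wide range. In WT mice the highest were Vamp2, at 508 ± 4.57 TPM (SD, n = 3), and Syt4, at 488 ± 30.0 TPM, whose ranges over the mice overlapped. Camk2b, at 431 ± 12.2 TPM, was the highest postsynaptic gene and lay apart from Syt4 above it and from Rab3a below it. Rab3a, Cplx2, Syp and Snap25 followed, with means of 412, 402, 384 and 367 TPM, and each overlapped with the next. At the lower end, Rims2 had 28.4 ± 5.83 TPM and Vamp1 11.5 ± 2.89 TPM, and these 2 did not overlap. Over the whole order, 26 of 37 pairs of neighbours overlapped in WT. The lowest count of any synaptic gene in a mouse was 110, and 37 of 38 genes lay above the median TPM of all genes tested, 26.4. A depth of 3 counts corresponded to at most 0.212 CPM, and all 38 genes lay far above it in every mouse.

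**Figure D2:**
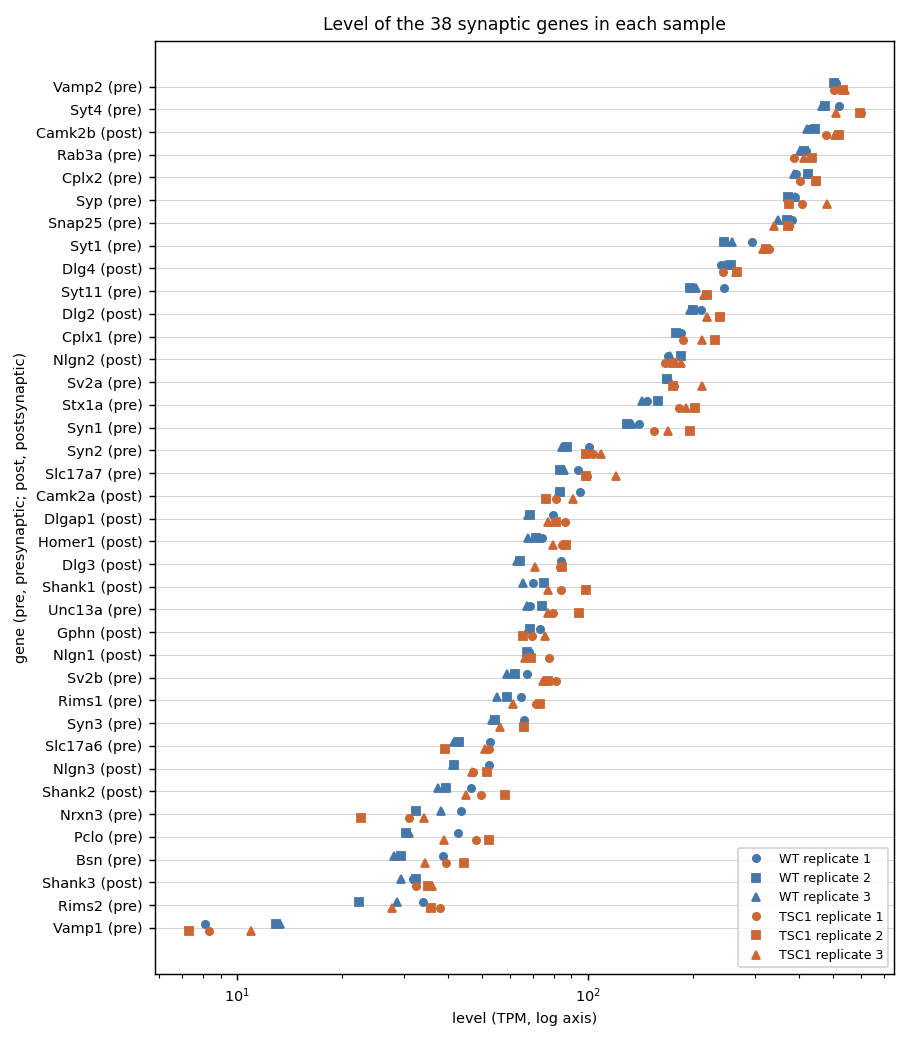
Level of each synaptic gene in each mouse (x axis, TPM on a log axis), ordered by the WT mean (y axis), with WT in blue, TSC1 in orange, and replicates 1, 2 and 3 as circles, squares and triangles. The spread between genes, from 7.30 to 601 TPM, is far wider than the distance between the groups within a gene.

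Of the 16 vesicle and release genes, 12 were higher in TSC1 and 4 lower, with a median log2 fold change of 0.12. Syn1 (X:20860511-20921004 of GRCm38, minus strand), a synapsin that tethers vesicles to actin, had 140.2, 129 and 134 TPM in WT replicates 1, 2 and 3 and 155, 195 and 169 TPM in TSC1 replicates 1, 2 and 3. All TSC1 mice lay above all WT mice, with a log2 fold change of 0.34 (SE 0.093, edgeR adjusted p = 0.105). Syn2, a second synapsin, had 101, 87.5 and 84.4 TPM in WT and 104, 99.2 and 109 TPM in TSC1, so that the groups overlapped at WT replicate 1. Its log2 fold change was 0.17 (SE 0.075, edgeR adjusted p = 0.28), and that of Syn3, the third synapsin, was 0.087.

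Stx1a and the vesicle protein Sv2b had the smallest p-values of the 38 genes. Stx1a, the plasma membrane SNARE syntaxin, had 148, 159 and 143 TPM in WT and 182, 203 and 190.3 TPM in TSC1. The lowest TSC1 mouse lay above the highest WT mouse, and the log2 fold change was 0.33 (SE 0.076, edgeR adjusted p = 0.071). Sv2b, a glycoprotein of the vesicle membrane, had 67.3, 62.0 and 59.1 TPM in WT and 81.4, 77.3 and 74.4 TPM in TSC1. Here too the groups lay apart, with a log2 fold change of 0.28 (SE 0.062, edgeR adjusted p = 0.061). Its relative Sv2a was also higher in all TSC1 mice, by a smaller log2 fold change of 0.13 (edgeR adjusted p = 0.486).

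The calcium sensor of fast release, Syt1, had 294, 246 and 258 TPM in WT and 329.5, 322 and 317 TPM in TSC1. The groups did not overlap, WT replicate 1 was the nearest to TSC1, and the log2 fold change was 0.25 (SE 0.070, edgeR adjusted p = 0.107). Syt4, a synaptotagmin of vesicles and dense-core granules, had 522, 476 and 466 TPM in WT and 601, 597 and 511 TPM in TSC1. TSC1 replicate 3 lay below WT replicate 1, so that the groups overlapped, and the log2 fold change was 0.20 (edgeR adjusted p = 0.211). Syt11, which does not bind calcium, had 244, 196 and 203 TPM in WT and 219.6, 219 and 214 TPM in TSC1. All TSC1 mice lay within the WT range, and the 95% interval of its log2 fold change was -0.17 to 0.17.

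The other SNARE genes did not follow Stx1a. Snap25 had 382, 369 and 349.5 TPM in WT and 375, 373 and 339.7 TPM in TSC1, giving a log2 fold change of -0.048 (95% interval -0.18 to 0.088). Vamp2, the vesicle SNARE synaptobrevin of the forebrain, had 512, 503 and 509.6 TPM in WT and 504, 534 and 542 TPM in TSC1, giving a log2 fold change of 0.022 (95% interval -0.13 to 0.17). Both genes overlapped between the groups, and the median of the 38 genes, 0.16, lay inside the interval of Vamp2 and outside that of Snap25. Vamp1, a synaptobrevin best known from the brainstem and spinal cord, had 8.14, 13.0 and 13.3 TPM in WT and 8.32, 7.30 and 11.0 TPM in TSC1. WT replicate 1 was as low as the TSC1 mice, and the log2 fold change of -0.38 had a 95% interval of -0.91 to 0.16.

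Of the complexins, which clamp and then promote SNARE fusion, Cplx1 had 185, 179 and 179.98 TPM in WT and 187, 231 and 212 TPM in TSC1. The groups lay apart by a narrow margin at their first replicates, and the log2 fold change was 0.18 (edgeR adjusted p = 0.32). Cplx2 had 393.5, 425 and 389 TPM in WT and 402, 449 and 449 TPM in TSC1, with overlapping groups and a log2 fold change of 0.082. The remaining vesicle genes were Rab3a, a small GTPase of the vesicle, with a log2 fold change of -0.029, and Syp, the membrane protein synaptophysin, with 0.10, and both overlapped between the groups. Syp was at -0.0128 without TSC1 replicate 3, and Rab3a at 0.029 without TSC1 replicate 1.

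**Figure D3:**
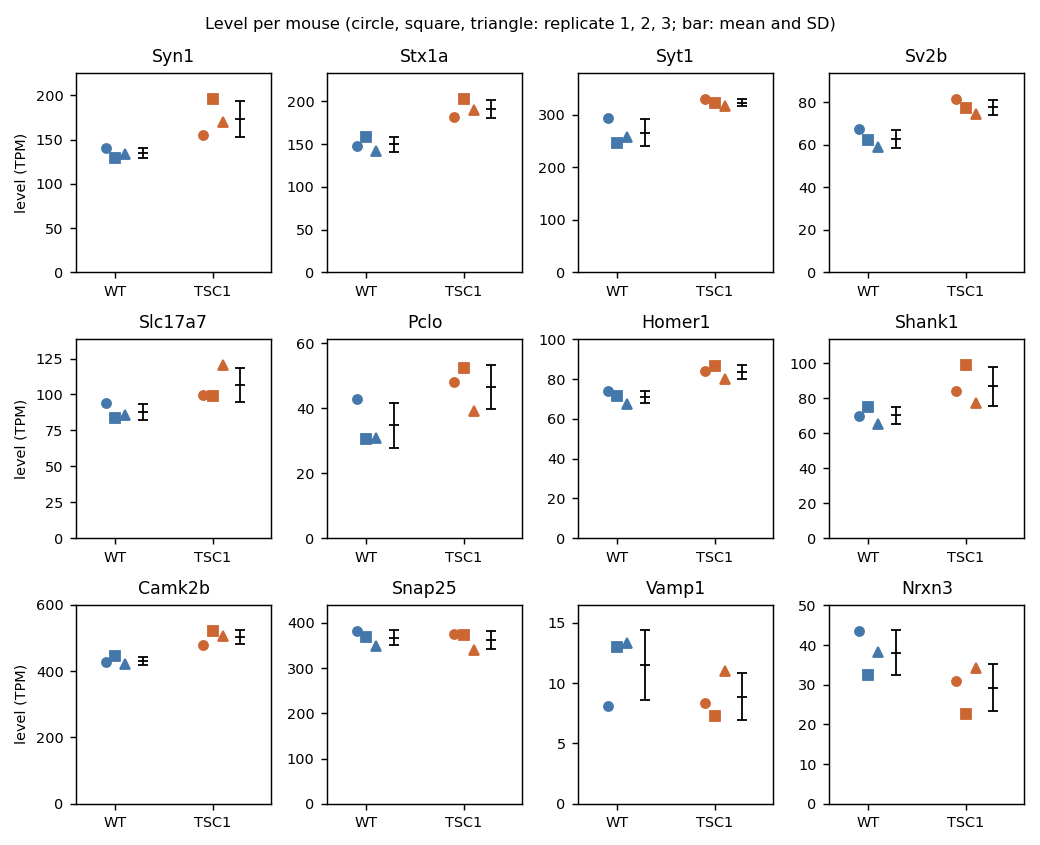
Level (y axis, TPM from 0) of 12 synaptic genes in each mouse of the WT and TSC1 groups (x axis), with replicates 1, 2 and 3 as circles, squares and triangles, and the mean and SD as a bar. Stx1a, Sv2b, Syt1, Homer1 and Camk2b lie apart between the groups, Snap25 overlaps, and in Nrxn3 the TSC1 mean is lower.

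All 5 active zone genes had a log2 fold change above 0, with a median of 0.25, the highest of the groups of more than 2 genes. Pclo, the large scaffold piccolo, had 42.8, 30.45 and 30.9 TPM in WT and 48.2, 52.4 and 39.01 TPM in TSC1. WT replicate 1 lay above TSC1 replicate 3, so that the groups overlapped, and the log2 fold change was 0.41 (SE 0.134, edgeR adjusted p = 0.158). Bsn, its relative bassoon, had 38.8, 29.5 and 28.1 TPM in WT and 39.6, 44.4 and 34.4 TPM in TSC1, with the same 2 mice crossing and a log2 fold change of 0.28 (edgeR adjusted p = 0.267). Unc13a, which primes vesicles, had 68.6, 74.3 and 67.1 TPM in WT and 79.9, 94.9 and 77.3 TPM in TSC1. It was the only active zone gene whose groups did not overlap, with a log2 fold change of 0.24 (SE 0.090, edgeR adjusted p = 0.208). Rims1 and Rims2, which link vesicles to calcium channels, had log2 fold changes of 0.18 and 0.25 with edgeR adjusted p-values of 0.346 and 0.381.

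The vesicular glutamate transporters load vesicles of excitatory neurons, Slc17a7 (VGLUT1) mainly in the cortex and Slc17a6 (VGLUT2) mainly in subcortical and immature neurons. Slc17a7 had 94.2, 83.6 and 85.5 TPM in WT and 99.9, 99.2 and 121 TPM in TSC1, with no overlap and a log2 fold change of 0.25 (SE 0.095, edgeR adjusted p = 0.198). Slc17a6 had 52.85, 42.96 and 41.5 TPM in WT and 52.5, 39.2 and 51.1 TPM in TSC1, giving a log2 fold change of 0.032 (95% interval -0.24 to 0.30). Slc17a7 was thus apart between the groups and Slc17a6 was not, and the ratio of the 2 genes is tested with the other ratios.

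Nrxn3, a presynaptic adhesion protein, had the lowest fold change of the 38 genes. It had 43.6, 32.4 and 38.1 TPM in WT and 30.9, 22.6 and 34.2 TPM in TSC1. TSC1 replicate 3 lay above WT replicate 2, so that the groups overlapped, and the log2 fold change was -0.39 (SE 0.144, edgeR adjusted p = 0.194). Its binding partners, the neuroligins, were near 0. Nlgn2, the neuroligin of inhibitory synapses, had 170.1, 184 and 172 TPM in WT and 166, 175 and 185 TPM in TSC1, giving a log2 fold change of -0.027 (95% interval -0.19 to 0.14). The 3 neuroligins together ranged from -0.027 to 0.079 in log2 fold change, and the signs of Nlgn1 and Nlgn2 turned under other settings.

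Among the postsynaptic genes, all 8 scaffolds of excitatory synapses had a log2 fold change above 0, with a median of 0.20, although Dlg4 was at -0.00796 without WT replicate 1. Homer1, which links Shank proteins to metabotropic glutamate receptors, had 74.05, 71.4 and 67.7 TPM in WT and 84.3, 86.8 and 79.9 TPM in TSC1. It had the smallest p-value on the postsynaptic side, with no overlap and a log2 fold change of 0.22 (SE 0.060, edgeR adjusted p = 0.108). Shank1 had 69.8, 75.1 and 65.3 TPM in WT and 84.3, 99.0 and 77.1 TPM in TSC1, with no overlap and a log2 fold change of 0.28 (SE 0.096, edgeR adjusted p = 0.171). Shank2 had 46.5, 39.5 and 37.5 TPM in WT and 49.7, 58.1 and 44.95 TPM in TSC1, and here TSC1 replicate 3 lay below WT replicate 1. Its log2 fold change was 0.29 (SE 0.105, edgeR adjusted p = 0.191). Shank3 had 31.9, 32.5 and 29.45 TPM in WT and 32.4, 35.1 and 36.0 TPM in TSC1, with overlapping groups and a smaller log2 fold change of 0.12 (edgeR adjusted p = 0.463). The Shank proteins form the deep layer of the excitatory scaffold.

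The Dlg proteins bind receptors in its upper layer. Dlg2 (PSD-93) had 210.2, 199 and 195.5 TPM in WT and 237, 238 and 219 TPM in TSC1, with no overlap and a log2 fold change of 0.18 (SE 0.062, edgeR adjusted p = 0.177). Dlg4 (PSD-95), the best known scaffold of the mature synapse, had a log2 fold change of 0.035. Dlg3 (SAP102), which is prominent in young neurons, had 0.21, and Dlgap1 (SAPAP1), which joins Dlg to Shank proteins, had 0.14, with edgeR adjusted p-values of 0.374 and 0.308.

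Of the CaM kinase II subunits in the list, Camk2b had groups apart and Camk2a did not. Camk2b, the subunit that binds actin and prevails early in development, had 427, 445 and 422 TPM in WT and 479.6, 520.0 and 506 TPM in TSC1, with no overlap and a log2 fold change of 0.19 (SE 0.071, edgeR adjusted p = 0.193). Camk2a, which comes to prevail in the forebrain after birth, had 95.5, 83.4 and 82.7 TPM in WT and 81.2, 76.3 and 90.9 TPM in TSC1, giving a log2 fold change of -0.098 (95% interval -0.285 to 0.088). Gphn, the gephyrin scaffold of inhibitory synapses, had 73.0, 68.6 and 67.5 TPM in WT and 69.5, 65.3 and 75.9 TPM in TSC1, and its log2 fold change was -0.016 (95% interval -0.19 to 0.16).

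Presynaptic and postsynaptic genes were then contrasted. Of the presynaptic genes 19 of 24 (79.2%) were above 0 in log2 fold change, and of the postsynaptic genes 11 of 14 (78.6%), against 49.3% of all genes. At an unadjusted edgeR p below 0.05, 9 (37.5%) and 5 (35.7%) were higher in TSC1, against 9.04%. Groups lay apart with TSC1 higher in 8 (33.3%) and 4 (28.6%), against 12.3%. The medians of the 2 sides differed by 0.042 on the log2 scale. Within each mouse, the mean log2 CPM of presynaptic genes less that of postsynaptic genes was 0.052, 0.013 and 0.067 in WT and 0.052, 0.019 and 0.079 in TSC1. The 2 groups overlapped in this difference (0.044 ± 0.0279 against 0.05 ± 0.03, SD, n = 3), so that no shift between the sides was seen that exceeded the spread between mice. The summed TPM was higher in TSC1 on both sides without overlap, with 4478.8, 4230.7 and 4181.4 in WT and 4646.6, 4821.5 and 4748.0 in TSC1 for presynaptic genes, and 1722.4, 1696.1 and 1625.7 in WT and 1822.1, 1907.4 and 1840.0 in TSC1 for postsynaptic genes. Together the 38 genes took 0.8467 ± 0.017% of all counts in WT and 0.914 ± 0.0187% in TSC1.

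Ratios within 6 pairs of related genes were compared by an exact two-sided permutation test, whose smallest p with 3 against 3 mice is 0.1. The ratio of Camk2a to Camk2b was 0.224, 0.188 and 0.196 in WT and 0.169, 0.147 and 0.18 in TSC1, the only ratio without overlap between the groups. Its log2 difference was -0.29, with an exact p of 0.1 and 0.36 after adjustment over the 6 ratios. The ratio of Slc17a7 to Slc17a6 was 1.93 ± 0.14 in WT and 2.27 ± 0.325 in TSC1 (SD, n = 3), with an exact p of 0.3 and overlapping groups. For Syt4 to Syt11 it was 2.29 ± 0.145 and 2.62 ± 0.199, for Cplx1 to Cplx2 0.452 ± 0.0264 and 0.484 ± 0.028, for Syn1 to Syn2 1.48 ± 0.103 and 1.67 ± 0.26, and for Vamp1 to Vamp2 0.0226 ± 0.0058 and 0.0168 ± 0.00334. These 4 had exact permutation p-values of 0.2 to 0.4, and none of the 6 differed after adjustment, in a design that could not reach an adjusted p below 0.05.

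**Figure D4:**
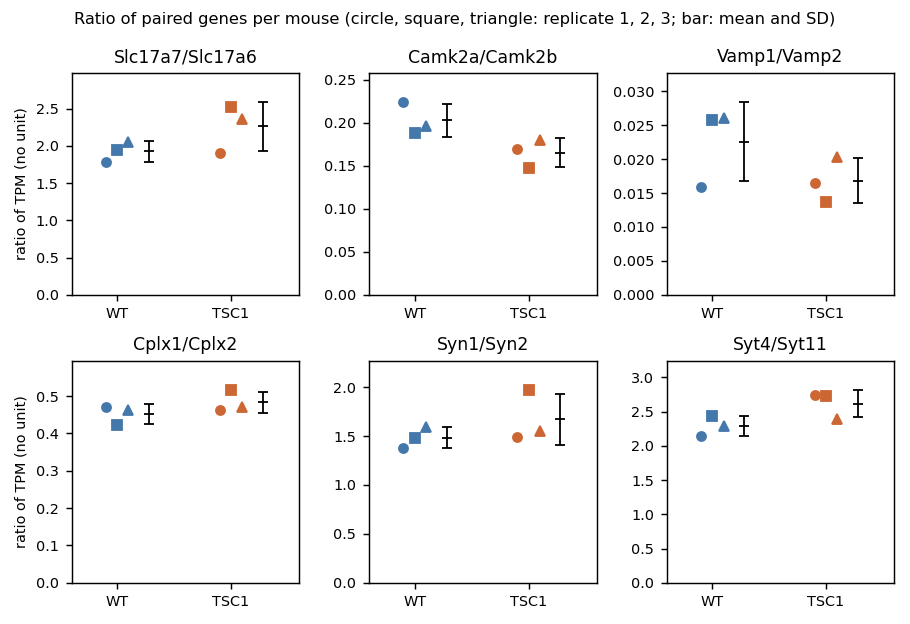
Ratio of TPM (y axis, no unit, from 0) of 6 pairs of related synaptic genes in each mouse of the WT and TSC1 groups (x axis), with replicates 1, 2 and 3 as circles, squares and triangles and the mean and SD as a bar. The ratio of Camk2a to Camk2b runs from 0.188 to 0.224 in WT and from 0.147 to 0.18 in TSC1, and the other 5 overlap.

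The spread between mice was not even over the libraries. WT replicate 1 had the highest WT level in 26 of 38 genes, and TSC1 replicate 3 had the lowest TSC1 level in 19 and the highest in 12. Leaving out WT replicate 1, edgeR called 2 of the 38, Sv2b and Pclo, both higher in TSC1, against 1.99% of all genes called higher. Leaving out TSC1 replicate 3, it called the same 2, against 2.61% of all genes. Without WT replicate 2, WT replicate 3, TSC1 replicate 1 or TSC1 replicate 2 it called 0 of the 38, with 8, 8, 14 and 6 higher at an unadjusted p below 0.05. The share of all genes at this unadjusted p was not taken in these fits. At an adjusted p below 0.05, the calls over all genes were 29 to 37 in them, against 212 with all mice. The genes above 0 in log2 fold change numbered 30 of 38 without WT replicate 1 and 27 of 38 without TSC1 replicate 3. The median log2 fold change of all genes tested was 0.002 and -0.002 in these 2 fits. Tsc1 itself, measured over the whole gene and not only the deleted part, had 50.2, 32.0 and 28.4 TPM in WT and 27.1, 21.7 and 22.4 TPM in TSC1. WT replicate 1 was thus also the mouse with the most Tsc1, whose log2 fold change was -0.66 (SE 0.175, edgeR adjusted p = 0.1).

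Other synaptic genes, outside the 38, were followed as a list of their own. Of 48 further presynaptic genes tested, 28 had a log2 fold change above 0, with a median of 0.051, and edgeR called 2, both lower in TSC1, against 0.659% of all genes called lower. Synpr, the vesicle protein synaptoporin, had 64.85, 56.8 and 65.5 TPM in WT and 25.05, 27.6 and 42.4 TPM in TSC1, and fell by 1.01 on the log2 scale (edgeR adjusted p = 0.0402). Syt6, a further synaptotagmin, had 47.15, 43.7 and 50.3 TPM in WT and 26.7, 30.5 and 36.2 TPM in TSC1, and fell by 0.64 on the log2 scale (edgeR adjusted p = 0.046). Both lay lower in every TSC1 mouse, with TSC1 replicate 3 nearest to WT. Of 39 further postsynaptic genes tested, 21 were above 0, with a median of 0.013, and 1 was called higher, against 0.859% of all genes. This was Cnksr2, a scaffold that binds PSD-95, with 52.5, 46.5 and 39.65 TPM in WT and 73.5, 70.4 and 62.4 TPM in TSC1 and a log2 fold change of 0.55 (SE 0.0931, edgeR adjusted p = 0.0306). The calls of Synpr, Syt6 and Cnksr2 were all lost without WT replicate 2, WT replicate 3, TSC1 replicate 1 or TSC1 replicate 2, where their edgeR adjusted p-values reached at most 0.185, 0.19 and 0.16, and their directions held. At an unadjusted p below 0.05, 22.9% of the presynaptic and 20.5% of the postsynaptic list were higher, against 9.04% of all genes, and the TPM of every TSC1 mouse was above that of every WT mouse in 12 of 48 and 5 of 39, against 12.3% of all genes. In the other direction, 5 of 48 and 1 of 39 were lower at that p, against 8.93% of all genes. Every TSC1 mouse was below every WT mouse in 4 of 48 and 1 of 39, against 10.3%.

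Cell type markers, listed by type, were set beside the synaptic genes. Markers of pan-neuronal identity had summed levels of 11808.4 to 12097.9 TPM in WT and 12176.1 to 13324.8 TPM in TSC1, and 8 of 10 were above 0 in log2 fold change, of which edgeR called 1, against 0.859% of all genes called higher. Of 6 markers of cortical excitatory neurons 5 were above 0, with sums of 1524.5 to 1789.2 TPM in WT and 1646.1 to 2126.8 TPM in TSC1. edgeR called 0 of them, DESeq2 2 and limma on log2(TPM + 1) 0, against 0.859%, 2.58% and 0.995% of all genes called higher. At an unadjusted edgeR p below 0.05, 2 were higher, against 9.04% of all genes. All 9 markers of striatal and other subpallial neurons that were tested had a log2 fold change below 0 and edgeR called 1 of them, against 0.659% of all genes called lower, with sums of 294.2 to 406.8 TPM in WT and 91.1 to 226.1 TPM in TSC1. All 8 GABAergic markers were below 0 and 4 of them were called, against the same 0.659%, with sums of 1078.6 to 1244.5 TPM in WT and 590.9 to 889.9 TPM in TSC1. Choroid plexus markers summed to 1159.2 to 2445.1 TPM in WT and 27.8 to 855.6 TPM in TSC1. All 4 were below 0 at an unadjusted edgeR p below 0.05, against 8.93% of all genes. edgeR called 0 of the 4, DESeq2 1 and limma on log2(TPM + 1) 1, against 0.659%, 2.29% and 0.988% of all genes called lower. None of these defining markers was at 0 in a group. TSC1 replicate 3 was the TSC1 mouse nearest to WT in the subpallial, GABAergic and choroid plexus sums. In the other lists, 7 of 8 radial glia and progenitor markers were below 0 and edgeR called 1 lower, against 0.659% of all genes. Of 5 astrocyte markers 3 were below 0 and 1 was called higher, against 0.859%. Below 0 were also 4 of 5 endothelial, 4 of 5 oligodendrocyte lineage, 3 of 5 microglia and 2 of 2 erythrocyte markers tested. Of 2 thalamus and hindbrain markers 1 was below 0, and edgeR called 0 in these 5 lists. The part of these differences in the levels of the synaptic genes was not tested.

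**Figure D5:**
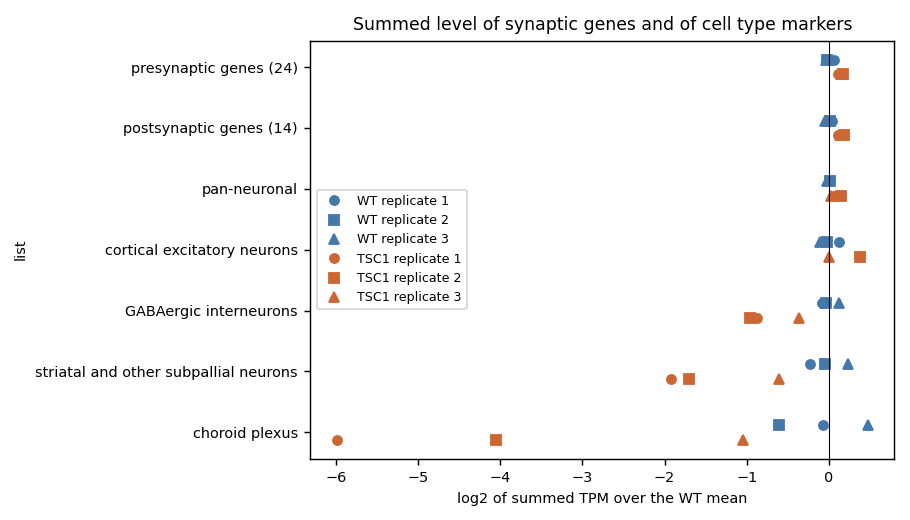
Summed TPM of the presynaptic and postsynaptic genes and of 5 lists of cell type markers (y axis) in each mouse, as the log2 of its ratio to the WT mean (x axis), with WT in blue, TSC1 in orange, and replicates 1, 2 and 3 as circles, squares and triangles. The synaptic sums lie close to 0, and the GABAergic, subpallial and choroid plexus sums lie far to the left in TSC1, with replicate 3 nearest to WT.

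Synaptic genes are long, and fold changes moved with transcript length in these libraries. The median transcript length was 4358 bases for the 38 genes and 2890 bases for all genes tested. Over the 13969 genes tested, the log2 fold change and the length had a Spearman correlation of 0.214, a description across genes of the same 6 libraries. The 3363 genes longer than the synaptic median had a median log2 fold change of 0.067, with 63.6% above 0, and 17.2% were higher in TSC1 at an unadjusted p below 0.05. Within the synaptic genes, 15 of the 19 longer and 15 of the 19 shorter ones were above 0, with medians of 0.18 and 0.13. The split was at the synaptic median of 4358 bases. Several of the shorter ones, such as Syn1 (3195 bases) and Dlg4 (3319 bases), were still longer than the median of all genes tested. Length less effective length, which RSEM takes from its modelled fragments, was 45.81 to 49.7 bases in WT and 55.08 to 57.62 bases in TSC1. With effective lengths as offsets in edgeR, 30 of the 38 genes were above 0 and 0 were called, against 204 of all 13969 genes. At an unadjusted p below 0.05, 14 of the 38 were higher and 1 lower, the same counts as without the offsets. The offsets hold only differences between mice in the effective length of a gene. They could not remove a trend with length across genes, so the equal counts do not bear on that trend. The mean transcript length that RSEM assigns to a gene moves with isoform use, and it could be tested in 21 synaptic genes. limma called 0 of these 21, against 0.0% of all 3081 genes tested in this way, with 1 of the 21 and 5.29% of all genes at an unadjusted p below 0.05.

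The annotation places other genes over some synaptic genes. Of the 38, 17 shared exon bases with another gene of the GENCODE annotation of GRCm38, and in 5 of these the other gene was in the tables. The shares were largest for Nlgn3, with 44.6% of its exon bases shared with a gene on the same strand, and Syp, with 33.8% shared with a gene on the other strand. Neither of these 2 partners was in the tables, and the levels of Nlgn3 and Syp may hold reads of them.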

How the data were processed

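mRNA-sequencing was done on telencephalon tissue of 3 WT and 3 TSC1 mice at postnatal day 0. Per the labels and the study's methods, the authors checked reads with FastQC, trimmed them with Fastx-toolkit, mapped them with MapSplice2 to the mm10 genome and ran RSEM 1.2.12 on RefSeq transcripts of a release not given in the sources used here. The deposited tables, 1 per mouse, hold expected counts (not normalized), TPM, FPKM, transcript lengths and effective lengths as RSEM made them. FPKM was not used.

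Groups were taken from the genotype labels. Expected counts were rounded and fitted over all genes with edgeR 4.0.16 in R 4.3.3 (TMM, filterByExpr, quasi-likelihood test, Benjamini-Hochberg adjustment). Lengths were fitted with limma 3.58.1 and ratios compared by exact permutation tests. Members and gene lists were chosen with earlier results of these data known. Values per mouse are given for genes with an unadjusted p below 0.05, the largest changes on each side, the members of the ratios and the highest and lowest levels. Alternatives were DESeq2 1.42.0, limma on log2(TPM + 1) and log2(TPM + 0.1), other normalizations and filters, effective lengths as offsets, a block for the replicate number and fits without each replicate in turn. edgeR was tested on simulated data for 3 WT against 3 TSC1, and recovered 200 of 200 genes changed by 1.5 (log2) among 13972, with 10 false calls. The simulation gave every gene the same dispersion. The highest log2 fold change among the 38 synaptic genes was 0.41, and recovery of changes that small was not tested. P-values of the fits weigh the difference between the groups against the spread between mice, and those of the ratios come from exchanging the group labels. Positions are from GENCODE on GRCm38, the assembly of mm10.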

Additional observations from a re-analysis of the deposited data

How the results depend on the processing

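The number of synaptic genes called, 0 by edgeR, was 5 with DESeq2, 1 each with limma on log2(TPM + 1) and log2(TPM + 0.1), and 0 to 2 with 1 replicate left out. Genes above 0 numbered 27 to 33 of 38 over all alternatives, from 30. The median log2 fold change of all genes, -0.003 in the main fit, moved too. It was 0.025 and 0.027 in the limma fits on log2(TPM + 1) and log2(TPM + 0.1), which gave 33. With upper quartile normalization, which gave 28, it was -0.034, and without TSC1 replicate 3, which gave 27, it was -0.002. Over all genes, the 212 calls became 640 with DESeq2, 346 with no filter and 29 to 799 with 1 replicate left out, the highest without TSC1 replicate 3 and the lowest without WT replicate 2. The 3 calls among the other synaptic genes became 7 with DESeq2, which called 2.58% of all genes higher and 2.29% lower. They became 0 to 9 with 1 replicate left out. The 9 came without TSC1 replicate 3, where 2.61% of all genes were called higher and 3.06% lower. The 3 calls were lost without WT replicate 2, WT replicate 3, TSC1 replicate 1 or TSC1 replicate 2. The difference between presynaptic and postsynaptic medians, 0.042, was 0.001 to 0.044 with 1 replicate left out, the lowest without WT replicate 2, and 0.013 without TSC1 replicate 3. The causes were not tested.

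The deviations of same-numbered mice correlated with r of 0.267 for replicate 1, -0.133 for replicate 2 and 0.318 for replicate 3. In replicates 1 and 3 each mouse correlated best with its own number, and in replicate 2 neither mouse did. The third replicates were both male, and whether sex had a part in this was not tested. A replicate block in edgeR gave 551 calls over all genes, 6 of the other synaptic genes and 4 of the 38, Stx1a, Sv2b and Shank1 higher and Nrxn3 lower, against 1.95% of all genes called higher and 1.99% lower.

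Of the 38 synaptic genes, 29 kept their sign in all 15 alternatives, and none of the 9 that did not was called in any of them. Vamp2 was -0.00804 with upper quartile normalization and -0.00941 to 0.0685 with 1 replicate left out. Syt11 was 0.0281 and 0.0282 with limma on log2(TPM + 1) and log2(TPM + 0.1), 0.00121 with the block and -0.0598 to 0.0751 with 1 replicate left out. Gphn was 0.00836 and 0.00845 with the same limma fits and -0.087 to 0.0285 with 1 left out. Rab3a was 0.00118 and 0.00117 with these fits and -0.0751 to 0.029 with 1 left out. Nlgn1 was -0.003 with upper quartile normalization and -0.0298 to 0.0704 with 1 left out. With 1 left out, Slc17a6 was -0.0348 to 0.148, Nlgn2 -0.078 to 0.0266, Dlg4 -0.00796 to 0.0919 and Syp -0.0128 to 0.176. No ratio changed sign, and no transcript length was called under any alternative. With 3 mice a group, the median 95% interval of a synaptic gene was 0.37 wide on the log2 scale.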
